A study of Mus musculus with 12 samples.

Results

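Transforming growth factor-β (TGF-β) and platelet-derived growth factor (PDGF) are the signals by which injured liver is best known to drive scar formation, and the genes described here are their ligands and receptors. The 10 genes were the TGF-β ligands Tgfb1, Tgfb2 and Tgfb3, the TGF-β receptors Tgfbr1 and Tgfbr2, the PDGF ligands Pdgfa, Pdgfb and Pdgfc, and the PDGF receptors Pdgfra and Pdgfrb. They were taken by gene name from the count tables, and all 10 were found among 54532 genes. Each had at least 24 counts in every library and passed the filter on low counts in every comparison, so none of them is missing from what follows. The libraries were made from whole liver of male mice with both Pparg alleles floxed, injected at 8 weeks of age with an adeno-associated virus. The virus carried a hepatocyte-specific TBG promoter driving Cre recombinase (PPARγ-KO) or enhanced green fluorescent protein (wild-type littermates), so the controls carried the floxed alleles and a virus too. All animals then received the fast-food diet (FFD), rich in saturated fat, cholesterol and sucrose, with fructose and glucose in the drinking water, for 2 or 5 months. No chow-fed group was analysed here. There were 3 libraries for each genotype at each time, 12 in all.

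TGF-β ligands are secreted in a latent complex and act, once released, through a complex of the type II receptor TGFBR2 and the type I receptor TGFBR1, which phosphorylates SMAD proteins. PDGF ligands are dimers that bring a pair of receptor chains together. PDGF-A and PDGF-C chains bind PDGFRα, while PDGF-B binds both PDGFRα and PDGFRβ. In liver, TGF-β is known for inducing matrix genes in hepatic stellate cells, and PDGF for driving the division and migration of those cells. Stellate cells carry both PDGF receptors, whereas TGF-β receptors are found on most liver cell types. In RNA from whole liver, fewer cells of a type and less RNA per cell cannot be told apart.

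Library totals ran from 16367775 to 27452284 counts. Between libraries of a group, chi-square per gene ran from 2.44 to 31.7, where sampling noise alone gives a value near 1. No library was thus a mere resequencing of another, but these values cannot show that each came from a separate mouse. Wild-type replicate 1 at 2 months stood farthest from its group (31.7 and 27.6 to its fellow libraries), and wild-type replicate 1 at 5 months lay at 13.1 and 14.6 from libraries that were only 2.44 apart. Pairs of PPARγ-KO libraries lay at 9.40 to 17.5, so the closeness of wild-type replicates 2 and 3 at 5 months was the unusual value. Fits without replicate 1 at 5 months rest on that close pair, whose small spread favors calls. The summed level of 10 hepatocyte markers was 58630 to 91290 CPM, as liver RNA should have. CPM is the count scaled by the normalized total of its library. Among wild-type libraries, replicate 1 had the lowest sum of monocyte-derived macrophage markers at both times, 234 and 570.2 CPM. PPARγ-KO libraries had 185 to 198 and 429 to 571. The hepatocyte sum of replicate 1 was the highest of wild-type at 2 months (74090) and the lowest at 5 months (58630). Where replicate 1 lay toward PPARγ-KO, leaving it out widens the difference, so counts without it are not further evidence of one. Pparg went against the genotype labels: its level was higher in libraries labelled PPARγ-KO, at 56.4 against 39.3 CPM at 2 months (log2 fold change 0.52 ± 0.107 SE, adjusted p = 0.0309) and at 84.9 against 38.5 CPM at 5 months (1.15 ± 0.0847, adjusted p = 2.57e-06). The deposited count sums reads over the whole gene, exons outside the floxed part included, so it does not show whether those exons were lost. PPARγ-KO and wild-type below therefore name libraries by their labels, and every direction rests on those labels. The study also measured PPARγ protein by immunoblot, which is not analysed here. The labels number the libraries as repeats without saying that each is a separate mouse, and p-values measure the spread between these libraries.

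The genes spanned a wide range of expression. Compared per kilobase of exon, which puts genes of different length on one scale, the order in wild-type libraries at 2 months ran from Tgfbr2 at 11.7 ± 1.66 CPM per kb (SD, n = 3) to Tgfb2 at 0.325 ± 0.0974. Tgfbr1 followed Tgfbr2 at 7.37 CPM per kb, and Tgfb1, Pdgfrb and Pdgfa lay at 4.76, 4.11 and 3.36. Of the last 3, Tgfb1 overlapped Pdgfrb and Pdgfrb overlapped Pdgfa, while every library had Tgfb1 (4.02 to 5.56) above the range of Pdgfa (3.05 to 3.65). Pdgfra at 1.19, Pdgfb at 1.00 and Pdgfc at 0.721 came next and were set apart from each other, followed by Tgfb3 at 0.638, whose range overlapped those of Pdgfc and Tgfb2. In wild-type at 5 months Pdgfc had moved up to rank 6 at 1.86 CPM per kb, set apart from the neighbour on either side. Tgfbr2 and Tgfbr1, set apart in wild-type at 2 months, overlapped in the other 3 groups. Tgfb1 made up 73.1% to 86.2% of the summed per-length level of the 3 TGF-β ligands in any library, and Pdgfrb (ENSMUSG00000024620, chr18:61045150-61085061, plus strand) 70.3% to 81.3% of that of both PDGF receptors.

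**Figure D1:**
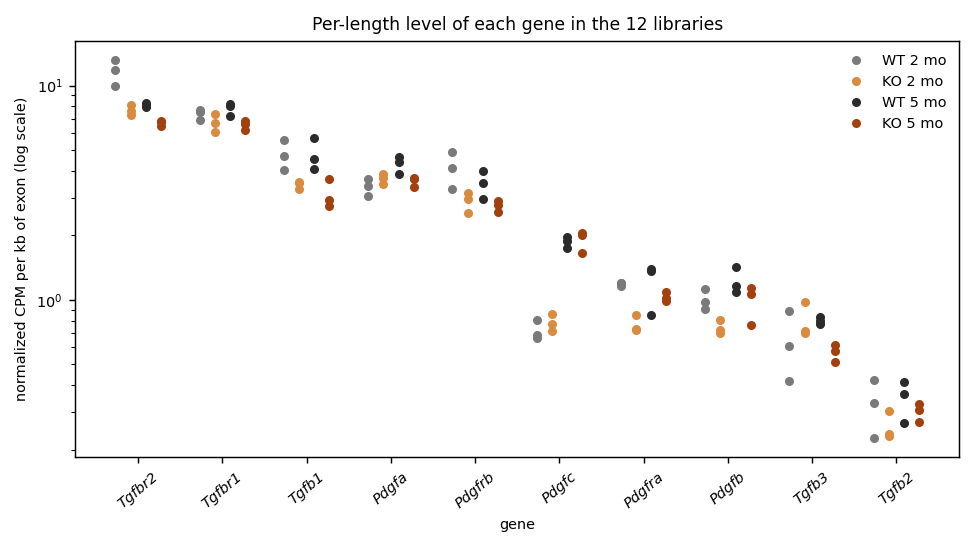
Normalized CPM per kilobase of exon (log scale) of the 10 genes in each of the 12 libraries, with genes ordered by their mean over all libraries and groups set apart by color. Both TGF-β receptors are at the top, Tgfb2 at the bottom, and Pdgfc stands at 1.66 to 2.05 at 5 months against 0.665 to 0.863 at 2 months.

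The first comparison asked whether libraries labelled PPARγ-KO differed from wild-type at each time. At 2 months Tgfbr2 and Pdgfra were lower in PPARγ-KO, where Tgfbr2 fell by 34.3% and Pdgfra fell by 35.3%, and none of the 10 genes was higher. At 5 months Tgfb1 fell by 34.3%, Tgfbr1 fell by 15.9% and Tgfbr2 fell by 16.8%, and again none was higher. Tgfbr2 was thus the gene that passed the test at both times (edgeR quasi-likelihood F-test, Benjamini-Hochberg adjusted over all genes tested, threshold 0.05). Of the genes tested at 2 months, 1.78% were called lower and the same share, 1.78%, higher, against 2 of 10 lower here. The corresponding shares at 5 months were 9.51% for lower and 8.90% for higher, against 3 of 10 lower here. The median log2 fold change of the 10 genes was -0.38 at 2 months and -0.26 at 5 months, beside -0.0048 and -0.0058 over all genes tested. PPARγ-KO and wild-type libraries did not overlap, with PPARγ-KO lower, for 5 of 10 genes at 2 months and 6 of 10 at 5 months, where 12.0% and 19.0% of all genes tested did so. These genes were chosen with earlier results of these libraries known, and the study had itself reported some of them as decreased. Their shares and medians beside those of all genes are therefore a description and not independent evidence. The count of calls turned on single libraries. It was 3 at 2 months without wild-type replicate 1 and 0 or 1 without any other library, and at 5 months it was 6 without wild-type replicate 1, 1 without wild-type replicate 3 or PPARγ-KO replicate 3, and 2 or 3 otherwise. The background moved too: without wild-type replicate 1, 5.25% of all genes tested were called lower at 2 months and 10.9% at 5 months.

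**Figure D2:**
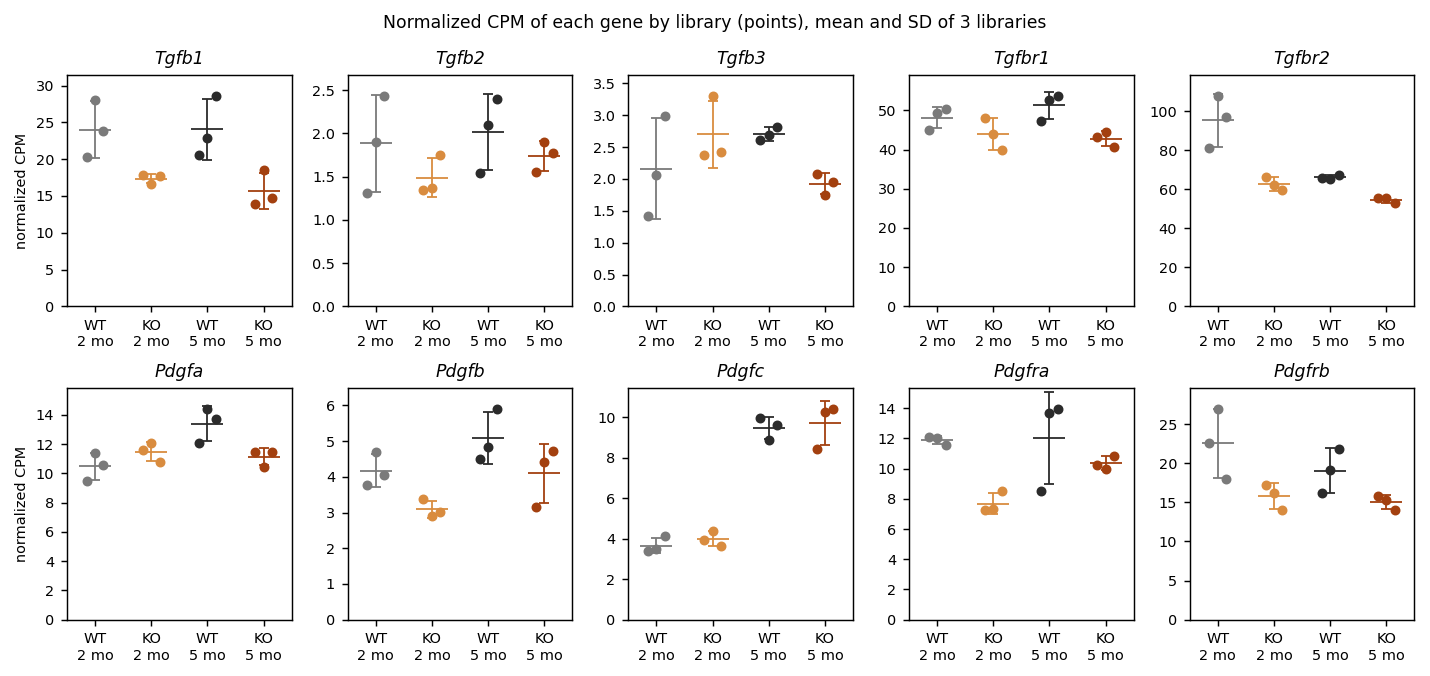
Normalized CPM of each of the 10 genes in each library (points, replicates 1 to 3 from left to right), with the mean and SD of 3 libraries, for wild-type (WT) and PPARγ-KO (KO) at 2 and 5 months, each axis starting at 0. Tgfb1 and Tgfbr2 are lower in every PPARγ-KO library than in every wild-type library of the same time, and Pdgfc is set apart by time and not by genotype.

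Tgfb1 encodes TGF-β1, the isoform most closely tied to liver fibrosis. The gene lies (ENSMUSG00000002603) at chr7:25687002-25705077 on the plus strand (mm10). Wild-type libraries at 2 months had 20.3, 28.0 and 23.8 CPM, and PPARγ-KO libraries 17.8, 16.6 and 17.6. Every PPARγ-KO library was below every wild-type library, but the fall of 0.47 on the log2 scale (SE 0.120, adjusted p = 0.0658) did not pass the test, and it did once wild-type replicate 1, the lowest of its group, was left out (-0.57, adjusted p = 0.00531). At 5 months wild-type libraries had 20.6, 22.9 and 28.6 CPM and PPARγ-KO libraries 13.9, 18.5 and 14.7. Again the groups did not overlap, and here the difference passed the test (log2 fold change -0.61 ± 0.141, 95% interval -0.92 to -0.30, adjusted p = 0.0126). Without PPARγ-KO replicate 3 the difference at 5 months was -0.56 with an adjusted p of 0.0605.

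Tgfb2 and Tgfb3 encode the other 2 isoforms. By mean per length they ranked lowest of the 10 genes in every group but PPARγ-KO at 2 months. There Tgfb3 was at rank 6, at 0.799 CPM per kb. Tgfb2 (ENSMUSG00000039239), at chr1:186622792-186705989 on the minus strand, had 24 to 48 counts per library. Its level was 1.89 ± 0.564 CPM in wild-type and 1.49 ± 0.227 in PPARγ-KO at 2 months, and 2.02 ± 0.437 and 1.74 ± 0.171 at 5 months (SD, n = 3). The groups overlapped at both times, and the 95% intervals, -1.0002 to 0.34 and -0.78 to 0.37 on the log2 scale, leave room for a change of a size seen in Tgfb1. Tgfb3 (ENSMUSG00000021253), at chr12:86056745-86079041 on the minus strand, had 26 to 65 counts per library. At 5 months its PPARγ-KO libraries, at 2.08, 1.74 and 1.96 CPM, lay below wild-type libraries at 2.61, 2.68 and 2.82, but the difference of -0.48 ± 0.221 did not pass the test (adjusted p = 0.162). At 2 months its wild-type libraries ran from 1.42 to 3.00 CPM and spanned 2 of the 3 PPARγ-KO libraries. Tgfb3 shares 5149 bases with Ttll5 on the opposite strand, which had 123 to 292 counts per library, and whether counting used strand is not given in the sources used here, so counts of these genes cannot be fully told apart.

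Tgfbr2, the ligand-binding type II receptor, lies (ENSMUSG00000032440) at chr9:116084293-116175360 on the minus strand. Its level in wild-type at 2 months was 81.1, 108 and 97.1 CPM, and in PPARγ-KO 66.5, 62.1 and 59.7. The groups were well apart, with a log2 fold change of -0.61 ± 0.102 (95% interval -0.83 to -0.38, adjusted p = 0.0165). The size held when any single library was left out, at -0.71 to -0.51, while the adjusted p missed the threshold in 5 of 6 such fits. It was lowest, 0.000288, with wild-type replicate 1 left out, and highest, 0.0665, with wild-type replicate 3 left out. At 5 months wild-type libraries had 66.1, 65.1 and 67.5 CPM and PPARγ-KO libraries 55.4, 55.8 and 52.9. The spread within each group was small, and the smaller difference of -0.27 ± 0.0610 passed the test (adjusted p = 0.00879). Without wild-type replicate 3 it was -0.25 with an adjusted p of 0.0518.

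Tgfbr1, the type I receptor kinase that phosphorylates SMAD2 and SMAD3, lies (ENSMUSG00000007613) at chr4:47353222-47414931 on the plus strand. At 2 months its wild-type libraries (45.0, 49.3 and 50.2 CPM) overlapped its PPARγ-KO libraries (48.1, 43.9 and 39.9), with a log2 fold change of -0.13 (95% interval -0.33 to 0.06). At 5 months PPARγ-KO libraries, at 43.2, 44.5 and 40.7 CPM, were all below wild-type libraries at 47.3, 52.7 and 53.8. The difference was -0.25 ± 0.0725 (adjusted p = 0.0297), and it missed the threshold when 1 of 4 single libraries was left out (wild-type replicate 2 or 3, PPARγ-KO replicate 1 or 3, adjusted p from 0.0654 to 0.139) and by DESeq2 (adjusted p = 0.0673). Since Tgfbr2 fell more than Tgfbr1 at 2 months, its share of the summed per-length level of both receptors was 61.1% ± 2.36 in wild-type and 53.3% ± 1.01 in PPARγ-KO (SD, n = 3), with no overlap. At 5 months the shares were 50.8% ± 1.67 and 50.5% ± 0.457 and overlapped.

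Of the PDGF ligands none passed the test between genotypes at either time. Pdgfa (ENSMUSG00000025856), at chr5:138976014-138997370 on the minus strand, encodes the PDGF-A chain. At 5 months its wild-type libraries had 12.1, 14.4 and 13.7 CPM and its PPARγ-KO libraries 11.5, 10.5 and 11.5, without overlap, and the difference was -0.26 ± 0.110 (adjusted p = 0.131, or 0.0492 without wild-type replicate 1). At 2 months the groups overlapped, at 9.50 to 11.4 and 10.8 to 12.1 CPM. Pdgfa shares 2315 bases with the antisense gene 6330403L08Rik, which had 31 to 74 counts per library, and the same limit on strand applies. Pdgfb (ENSMUSG00000000489), at chr15:79995874-80014977 on the minus strand, encodes the PDGF-B chain, the main growth signal for stellate cells. At 2 months its PPARγ-KO libraries, at 3.37, 2.91 and 3.02 CPM, were below wild-type libraries at 3.77, 4.69 and 4.06, with a difference of -0.43 ± 0.190 that did not pass the test (adjusted p = 0.257). At 5 months the ranges overlapped, at 3.16 to 4.74 in PPARγ-KO and 4.51 to 5.90 in wild-type. Pdgfc (ENSMUSG00000028019), at chr3:81036416-81214040 on the plus strand, encodes a ligand released from its own inhibitory domain by proteases, and its genotypes overlapped at both times (95% intervals -0.30 to 0.54 and -0.23 to 0.31).

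Pdgfra encodes PDGFRα and lies (ENSMUSG00000029231) at chr5:75152292-75198215 on the plus strand. At 2 months wild-type libraries had 12.1, 12.1 and 11.6 CPM, close together, and PPARγ-KO libraries 7.25, 7.30 and 8.49. The difference of -0.63 ± 0.124 (95% interval -0.90 to -0.35, adjusted p = 0.0253) was the largest of the 10 genes in any comparison of genotypes by a small margin over Tgfbr2 and Tgfb1, and a test between genes was not made. With 1 library left out it ran from -0.71 to -0.59, with an adjusted p above 0.05 in 4 of 6 such fits (up to 0.110). At 5 months wild-type libraries were split, at 8.54, 13.7 and 14.0 CPM, and straddled PPARγ-KO libraries at 10.3, 9.95 and 10.9. The lowest value was wild-type replicate 1, the library that stood apart from its group. With it the difference was -0.21 ± 0.167 (adjusted p = 0.439), and without it -0.41 (adjusted p = 0.0173).

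The 4 genes called between genotypes, Tgfb1, Tgfbr1, Tgfbr2 and Pdgfra, and Pdgfc, which changed most over time, are shown by the 250 bases before their RefSeq start (GRCm38.p6, the build of mm10), so that the sequence next to each start can be read beside the values above. Of the 10 genes, 7 had an entry in the RefSeq promoter table, with 9 windows. The motifs searched on both strands were AGGTCA (the core of the element bound by nuclear receptors such as PPARγ), GTCTAGAC and GGCGCC (SMAD motifs), GGGCGG (Sp1), TGACTCA (AP-1) and TATAAA (the TATA box), and capitals mark every match, where GGGCGG on the other strand reads CCGCCC.
Tgfb1, chr7:25686752-25687001, plus strand: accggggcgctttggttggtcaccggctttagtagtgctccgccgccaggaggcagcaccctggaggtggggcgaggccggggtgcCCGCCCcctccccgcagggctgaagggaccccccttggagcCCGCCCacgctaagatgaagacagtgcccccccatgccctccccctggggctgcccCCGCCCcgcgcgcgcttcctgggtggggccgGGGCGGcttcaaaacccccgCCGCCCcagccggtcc
Tgfbr1, chr4:47352972-47353221, plus strand, first of 2 windows: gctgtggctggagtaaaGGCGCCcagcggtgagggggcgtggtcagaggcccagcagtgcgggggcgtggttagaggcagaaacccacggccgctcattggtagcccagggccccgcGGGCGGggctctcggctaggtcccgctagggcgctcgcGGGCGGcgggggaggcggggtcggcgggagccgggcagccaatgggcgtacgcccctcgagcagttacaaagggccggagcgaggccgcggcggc
Tgfbr2, chr9:116175364-116175613, minus strand: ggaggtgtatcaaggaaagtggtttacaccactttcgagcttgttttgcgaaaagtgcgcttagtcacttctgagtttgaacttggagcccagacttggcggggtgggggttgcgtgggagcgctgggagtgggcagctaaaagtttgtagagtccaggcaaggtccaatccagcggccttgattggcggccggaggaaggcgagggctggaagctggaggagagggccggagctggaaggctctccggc
Pdgfc, chr3:81036166-81036415, plus strand: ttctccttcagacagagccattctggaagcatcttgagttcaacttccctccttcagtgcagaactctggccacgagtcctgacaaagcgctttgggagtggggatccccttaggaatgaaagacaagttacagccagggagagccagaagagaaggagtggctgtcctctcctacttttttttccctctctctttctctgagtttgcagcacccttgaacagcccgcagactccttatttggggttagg
Pdgfra, chr5:75152001-75152250, plus strand: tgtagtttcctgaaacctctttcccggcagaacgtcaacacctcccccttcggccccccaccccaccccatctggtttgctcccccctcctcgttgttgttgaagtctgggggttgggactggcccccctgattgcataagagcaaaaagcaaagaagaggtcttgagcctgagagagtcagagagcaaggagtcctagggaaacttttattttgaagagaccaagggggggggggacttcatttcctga
The Tgfb1 window was 75.2% G and C and held GGGCGG 5 times, 4 of them on the other strand. Of 32851 windows of this length, 32.7% held that motif at least once. The first Tgfbr1 window held GGGCGG at 2 places and GGCGCC at 1, the second of which was found in 9.59% of all windows. The windows of Tgfbr2, Pdgfc and Pdgfra held none of the 6 motifs, and their G and C content, 58.4%, 50.8% and 54.4%, was closer to the median of all windows at 52.4%. AGGTCA, present in 14.0% of all windows, GTCTAGAC, in 0.167%, and TGACTCA, in 4.46%, were found in none of the 9 windows, and TATAAA, in 12.4% of all windows, in that of Tgfb2 alone. A match is a run of letters and not a binding site, and no match speaks only for these letters in these windows.

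Pdgfrb encodes PDGFRβ, which marks stellate cells and other mural cells of the liver. At 2 months wild-type libraries had 22.6, 26.9 and 18.03 CPM and PPARγ-KO libraries 17.2, 16.1 and 14.0. The groups did not overlap, and the difference of -0.52 ± 0.148 did not pass the test (adjusted p = 0.0929). With the replicate number as a block, an alternative whose pairing is not established, it did (-0.50, adjusted p = 0.0310). At 5 months wild-type libraries had 16.2, 19.1 and 21.8 CPM and PPARγ-KO libraries 15.8, 15.2 and 14.1. The difference was -0.33 ± 0.115 (adjusted p = 0.0650), and without wild-type replicate 1 it was -0.43 (adjusted p = 0.00830).

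**Figure D3:**
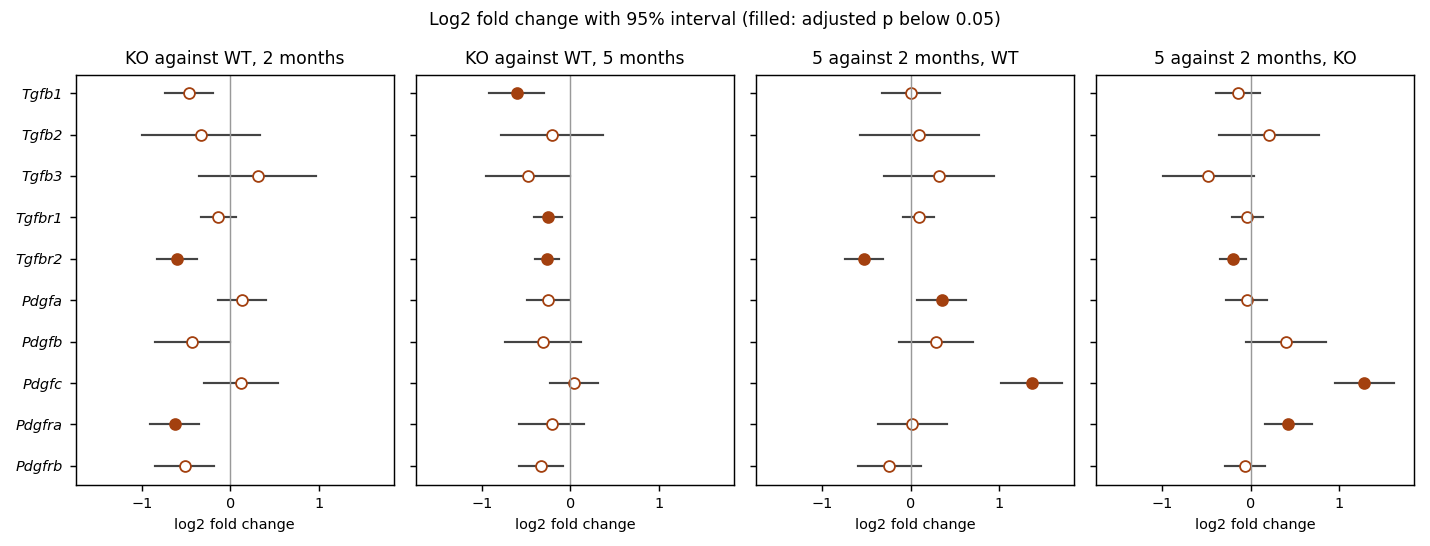
Log2 fold change (points) with its 95% interval (lines) for each gene in the 4 pairwise comparisons, where filled points have an adjusted p below 0.05. Between genotypes the filled points, 2 at 2 months and 3 at 5 months, lie below 0, and over time Pdgfc lies above 1 in both genotypes.

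The second comparison set 5 months of FFD against 2 months within each genotype. Pdgfc rose the most in both, to 2.58 times its 2-month level in wild-type and 2.43 times in PPARγ-KO, while Tgfbr2 fell in both. In wild-type, Pdgfa also rose, and in PPARγ-KO, Pdgfra also rose. In each genotype 2 of 10 genes were called higher and 1 lower, where 23.8% of all genes tested were called higher and 22.7% lower in wild-type, and 22.7% higher and 22.2% lower in PPARγ-KO. Libraries of both times may also differ in when they were prepared and sequenced, which is not given in the sources used here. Animals at 5 months were also older, since all were injected at 8 weeks of age and then put on the diet. Time on diet, age and such a batch cannot be told apart.

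Pdgfc went from 3.39, 3.503 and 4.11 CPM in wild-type at 2 months to 9.96, 8.87 and 9.61 at 5 months (log2 fold change 1.37 ± 0.159, adjusted p = 7.1e-05). In PPARγ-KO it went from 3.94, 4.39 and 3.65 to 8.45, 10.3 and 10.4 (1.28 ± 0.152, adjusted p = 6.21e-05). Every library at 5 months was above every library at 2 months, and both calls held in all 13 alternative fits. Its share of the summed per-length level of the 3 PDGF ligands went from 14.2% ± 1.53 to 25.3% ± 2.66 in wild-type and from 15.03% ± 0.728 to 29.5% ± 2.08 in PPARγ-KO (SD, n = 3), with no overlap between times. Pdgfa, the most abundant PDGF ligand per length, rose in wild-type from 10.5 ± 0.945 to 13.4 ± 1.18 CPM (0.35 ± 0.125, adjusted p = 0.0385), and this call was lost in 6 of 13 alternative fits. In PPARγ-KO it was 11.5 ± 0.653 and 11.1 ± 0.589 CPM. Pdgfb overlapped between times in both genotypes, with log2 fold changes of 0.29 in wild-type and 0.40 in PPARγ-KO.

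Tgfbr2 fell with time from 95.4 ± 13.6 to 66.2 ± 1.202 CPM in wild-type (log2 fold change -0.53 ± 0.0966, adjusted p = 0.00125), a call that held in all 13 alternative fits. In PPARγ-KO it fell from 62.8 ± 3.47 to 54.7 ± 1.55 (-0.20 ± 0.0661, adjusted p = 0.0287), and 7 of 13 alternatives lost that call. Tgfbr1 overlapped between times in both genotypes (0.09 and -0.04). Tgfb1 was 24.0 CPM at both times in wild-type, with a 95% interval of -0.32 to 0.33 for the log2 fold change, and 17.4 and 15.7 in PPARγ-KO. Pdgfra went from 7.68 ± 0.702 to 10.4 ± 0.464 CPM in PPARγ-KO, with no overlap (0.42 ± 0.121, adjusted p = 0.0150), and 2 of 13 alternatives lost that call. In wild-type it was 11.9 and 12.1 CPM, with replicate 1 at 5 months well below the rest. Pdgfrb overlapped between times in both genotypes (-0.24 and -0.07), as did Tgfb2 (0.10 and 0.21). Tgfb3 in PPARγ-KO was lower at 5 months in every library, at 1.74 to 2.08 CPM against 2.38 to 3.31, without passing the test (-0.48 ± 0.233, adjusted p = 0.115).

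Whether the genotype difference itself changed between 2 and 5 months was tested in a fit of all 12 libraries. By edgeR, 0 of 10 genes passed, where 1.57% of all genes tested did, and DESeq2 gave 0 as well. At an unadjusted p under 0.05 there were 3, where 14.9% of all genes tested reached it. Tgfbr2 had a smaller fall at 5 months (difference of log2 fold changes 0.33 ± 0.121, adjusted p = 0.198), and Tgfb3 and Pdgfa a more negative value (-0.80 ± 0.366, adjusted p = 0.320, and -0.40 ± 0.158, adjusted p = 0.244). Without wild-type replicate 1 at 2 months the Tgfbr2 difference was 0.44 and passed the test (adjusted p = 0.0185). For Tgfb1 the interval of the difference was -0.57 to 0.28 and for Pdgfra -0.06 to 0.87, so the fall of Pdgfra at 2 months and its absence from the calls at 5 months is not shown to differ.

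The other genes of both pathways were taken from 8 lists of 161 genes in all, which hold the machinery of TGF-β latency, other receptors and ligands of the family, SMADs, TGF-β response genes, PDGF processing, PDGF receptor signal transduction and immediate early genes. At 2 months 2 of 150 tested were higher in PPARγ-KO and 6 lower, and at 5 months 11 of 148 were higher and 24 lower, beside the shares of all genes given above. Without wild-type replicate 1 at 2 months, 8 were higher and 26 lower of 152, and without wild-type replicate 1 at 5 months, 12 higher and 34 lower of 151. As shares, genes called lower rose from 4.00% to 17.1% of those on the lists at 2 months, where all genes tested went from 1.78% to 5.25%, and from 16.2% to 22.5% at 5 months, where all genes went from 9.51% to 10.9%. Genes called higher made up 1.33% and 7.43% of the lists with all libraries and 5.26% and 7.95% without those replicates, beside 5.31% and 10.1% of all genes without them. For the lists no other library was left out. For the ligand and receptor genes, leaving out any other library lowered the count of calls between genotypes or left it as it was. The median log2 fold change over the lists was -0.10 at 2 months and -0.05 at 5 months. The lists too were chosen with earlier results of these libraries known, so their shares beside those of all genes are not independent evidence.

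The list with the lowest median at both times was that of TGF-β response genes, several of which the study had itself picked from these libraries, so its direction is not independent evidence. At 2 months 0 of 23 were higher and 2 lower, Id3, a SMAD-driven inhibitor of differentiation (27.4 against 44.0 CPM), and Tgfbi, a matrix protein named for its induction by TGF-β (61.1 against 85.1 CPM). Its median was -0.58, and without wild-type replicate 1 the count was 1 higher and 10 lower. At 5 months 1 of 22 was higher and 10 lower, with a median of -0.51. Acta2, the smooth muscle actin of activated stellate cells, was at 2.61 against 6.63 CPM (log2 fold change -1.36 ± 0.266, adjusted p = 0.00422). Tnc, which encodes the matrix protein tenascin C, and Timp1, an inhibitor of matrix-degrading proteases, fell by 1.34 and 1.06 on the log2 scale (adjusted p = 0.000626 and 0.0376). Without wild-type replicate 1 the count was 1 higher and 13 lower of 24. The gene that rose was Fn1, fibronectin (0.27, adjusted p = 0.0258).

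Among genes that hold or release latent TGF-β, 0 of 16 passed at 2 months, where 14 of 16 had a value below 0. At 5 months 3 fell and 1 rose. Nrros, which tethers latent TGF-β on macrophages and microglia, was at 5.76 against 13.7 CPM (-1.24 ± 0.132, adjusted p = 4.47e-05). Ltbp2, a latent TGF-β binding protein of the matrix, fell by 1.36 on the log2 scale, and Thbs1, thrombospondin 1, an activator of latent TGF-β, fell by 0.88. Furin, the protease that cuts the TGF-β precursor, was higher, at 300.5 against 242 CPM (0.32 ± 0.0719). With wild-type replicate 1 of each time left out, 4 of 16 were lower at 2 months and 5 lower and 1 higher at 5 months. Of the other receptors of the family, 0 of 10 passed at 2 months and 1 at 5 months, Acvrl1, the endothelial type I receptor ALK1, at 4.82 against 10.1 CPM (-1.06 ± 0.159, adjusted p = 0.000549). Of the SMADs and their regulators, 0 of 19 passed at 2 months and 2 fell at 5 months, Smad9, a SMAD of the BMP branch (0.861 against 4.52 CPM, -2.38 ± 0.349), and Fkbp1a, whose product FKBP12 binds type I receptors (-0.45 ± 0.0668). With those libraries left out, the SMAD list had 1 lower at 2 months and 3 at 5 months, and the counts of the other receptors stayed at 0 and 1.

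Of the other ligands and antagonists, Dcn, decorin, a matrix proteoglycan that binds TGF-β, was lower at both times, at 154 against 196 CPM at 2 months (-0.34, adjusted p = 0.0316) and 233 against 296 at 5 months (-0.33, adjusted p = 0.00520). Bmp10 was higher at 2 months, and Bmp1, a matrix-processing protease, was higher at 5 months. Of the 20 tested, that was 1 in each direction at 2 months, and 1 lower against 2 higher at 5 months. Leaving out the same libraries gave 2 higher and 3 lower of 21, and then 1 higher and 3 lower of 20.

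On the PDGF side, 0 of 10 genes of the family and its processing passed at 2 months. At 5 months 3 fell and 1 rose. Plau, the urokinase that can activate PDGF-D, was at 3.58 against 7.89 CPM (-1.13 ± 0.234). Nrp1, a coreceptor, was at 42.4 against 62.7 CPM (-0.55 ± 0.0723), and Sparc, which binds PDGF-B, fell too (-0.26 ± 0.0777). The gene that rose was F11, which encodes coagulation factor XI (0.56 ± 0.0864). Whether F11 has a part in PDGF processing was not tested. Of 34 genes of signal transduction, 1 rose and 1 fell at 2 months, and 4 rose and 1 fell at 5 months. The same 2 genes were called at both times, the adaptor Crkl, higher (0.38 and 0.36), and Stat5a, lower (-0.55 and -0.38). Src, Plcg1 and Pik3r1, which encode a kinase, a phospholipase and a phosphoinositide 3-kinase subunit recruited to the receptors, were higher at 5 months. Immediate early genes gave 0 higher and 2 lower of 18 at 2 months, the AP-1 gene Junb and the MAP kinase phosphatase Dusp6 (-0.64 and -0.52). At 5 months 2 of 17 were higher and 3 lower, Ier3, Myc and Klf6 falling by 1.31, 0.52 and 0.51 and Dusp1 and Ier2 rising by 0.87 and 0.42. Pik3r1 and Ier2 are named here after their values were seen, to complete short counts. When wild-type replicate 1 at 2 months was left out, the family and its processing had 2 higher and 3 lower of 11, signal transduction 3 higher and 1 lower of 34, and immediate early genes 0 higher and 4 lower of 18. When that of 5 months was left out, signal transduction had 6 higher and 3 lower, and the counts of the other 2 lists were as above.

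**Figure D4:**
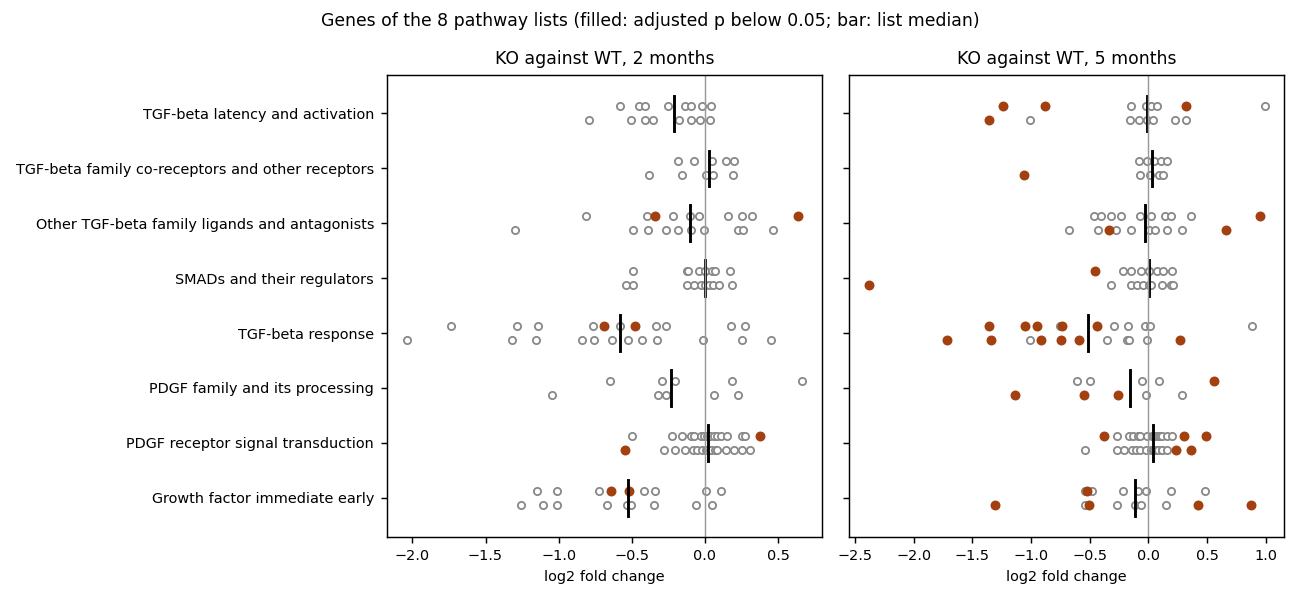
Log2 fold change of PPARγ-KO against wild-type for each tested gene of the 8 pathway lists at 2 and 5 months, where filled points have an adjusted p below 0.05 and bars are list medians. Points of the TGF-β response list extend furthest below 0 at 2 months, with a median of -0.58, and hold 10 of the 24 genes called lower at 5 months.

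Over time the same lists moved in both directions, with 19 higher and 34 lower of 150 in wild-type and 28 higher and 31 lower of 149 in PPARγ-KO. These shares, 12.7% and 22.7% in wild-type and 18.8% and 20.8% in PPARγ-KO, were near or below those of all genes tested (23.8% and 22.7%, and 22.7% and 22.2%), so the genes that follow are examples and say nothing of the lists. Eng and Tgfbr3, the coreceptors endoglin and betaglycan, fell in both genotypes, Eng from 127 to 70.8 CPM in wild-type and from 121 to 66.7 in PPARγ-KO, and Tgfbr3 by 0.87 and 0.78 on the log2 scale. Smad7, the inhibitory SMAD, fell by 0.95 and 0.74. Fn1 fell in both by 0.86 and 0.88, while Timp1 rose by 1.13 and 1.81. Lrp1, the receptor that takes up proteases and modulates PDGFRβ, fell by 0.56 and 0.82. In PPARγ-KO, Cdkn1a, the cell cycle inhibitor p21, rose from 7.53 to 74.8 CPM (3.30 ± 0.281, adjusted p = 0.000522).

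Markers of liver cell types are set beside these genes. In wild-type from 2 to 5 months the mean Kupffer cell sum rose from 589 to 1642 CPM, while Tgfb1 stayed at 24.0. Between genotypes at 5 months both were lower in PPARγ-KO. Tgfb1 was at 15.7 against 24.0 CPM, and the mean Kupffer cell sum at 831 against 1642. Of 13 stellate cell markers, 0 were called at 2 months by edgeR and 2 were lower at 5 months, Lum and Colec11. Without wild-type replicate 1 of each time the counts were 1 higher and 2 lower, and 0 higher and 4 lower. Their summed level at 2 months was 478 to 508 CPM in wild-type and 446 to 454 in PPARγ-KO. At 5 months it was 576 to 588 and 515 to 548, with no overlap at either time. Of the 13 markers, 5 had a value above 0 and 8 below at 2 months, and 3 above and 10 below at 5 months. Reln alone was at 109 against 131 CPM at 2 months, and at 72.3 against 73.1 at 5 months. Of 12 endothelial markers, 0 were called at 2 months, and 5 were lower and 1 higher at 5 months. Of 11 Kupffer cell markers, 1 was higher at 2 months and 10 were lower at 5 months, when the sum was 1505 to 1715 CPM in wild-type and 759 to 944 in PPARγ-KO. Of 10 markers of monocyte-derived macrophages, 4 were lower at 2 months and 5 at 5 months, with sums of 234 to 357 against 185 to 198 CPM at 2 months and 570.2 to 886 against 429 to 571 at 5 months, which overlapped. Spp1 and Lyz2 made up most of that sum, at 128 and 94.15 CPM in wild-type at 2 months, and Spp1 is on the list of cholangiocyte markers too. In the fits that leave out those libraries, monocyte-derived macrophage markers had 6 and 8 lower, Kupffer cell markers 2 higher and 9 lower, and endothelial markers 1 lower, then 4 lower and 1 higher. Of all genes tested, 1.78% were called lower at 2 months and 9.51% at 5 months, and 1.78% and 8.90% higher. Without those libraries these shares were 5.25% and 10.9% lower, and 5.31% and 10.1% higher. The sum of hepatocyte markers was higher in PPARγ-KO at both times, with no overlap. Alb made up most of it, at 57100 CPM in PPARγ-KO against 36980 in wild-type at 5 months. Of the 10 markers, 9 had a value above 0 and 1 below at 2 months, and 6 above and 4 below at 5 months. The part of these shifts in the falls of Tgfb1, Tgfbr1, Tgfbr2 and Pdgfra was not tested. Over time, 7 stellate markers were higher and 1 lower in wild-type, and 8 higher and 2 lower in PPARγ-KO. Of all genes tested, 23.8% were called higher and 22.7% lower over time in wild-type, and 22.7% and 22.2% in PPARγ-KO.

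**Figure D5:**
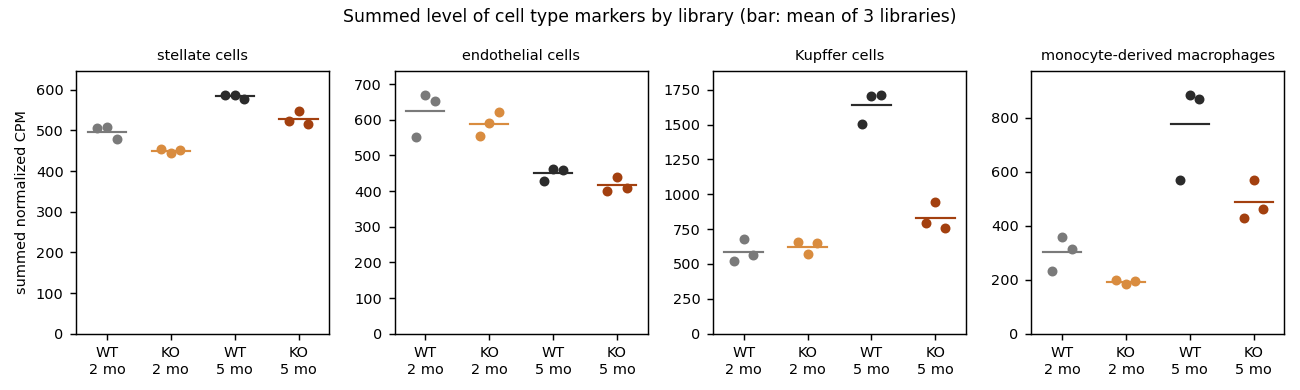
Summed normalized CPM of the markers of stellate cells, endothelial cells, Kupffer cells and monocyte-derived macrophages in each library (points) with the mean of 3 libraries (bars), each axis starting at 0. The Kupffer cell sum at 5 months is 1505 to 1715 in wild-type and 759 to 944 in PPARγ-KO, and the stellate cell sums differ less.

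The genes whose level over the 12 libraries was most like that of each of the 10 were found by Pearson's r of log2 CPM, as a description, since libraries of a group share their genotype, time and any batch. Pdgfc was followed most closely by Tvp23b (r = 0.992), Txn1 (0.989) and Srsf9 (0.988), and Tgfbr2 by Slc5a6 (0.982), Zfp655 (0.963) and Gpd2 (0.958). For Pdgfra the nearest were Cd200r1 (0.965), Trove2 (0.947) and Timp2 (0.900), and for Pdgfb Timp2 (0.927), Rgs19 (0.918) and Ap1s2 (0.917), so that Timp2, a protease inhibitor of the matrix, was near both. Tgfb1 was nearest to Cmtm3 (0.928), Det1 (0.922) and Abcd2 (0.920). Pdgfrb was nearest to Fmnl3 (0.907), Gpat3 (0.894) and Tgfbi (0.881), Tgfbr1 to Myct1 (0.935), Ptpmt1 (0.906) and Ikzf1 (0.901), and Pdgfa to Csf2rb (0.942), Ehbp1l1 (0.923) and Fgd3 (0.907). Tgfb2 and Tgfb3, with the lowest counts, were nearest to Arl10 (0.950) and Gja1 (0.886).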

How the data were processed

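Liver RNA was sequenced as 12 libraries by Novogene on an Illumina NovaSeq. The methods of the study name STAR with mm10, the submitters' processing notes name HISAT2 with mm10, and the counting program, annotation and strand setting are not given in the sources used here. The authors deposited raw counts per gene, with gene coordinates and exonic length, and no normalization. Here, each comparison of 2 groups was fitted on its own 6 libraries and the difference of differences on all 12, with R 4.3.3 and edgeR 4.0.16 (filterByExpr, TMM scaling, robust quasi-likelihood F-test, two-sided, Benjamini-Hochberg over all genes tested, threshold 0.05). Standard errors are the log2 fold change over the root of F, and intervals are 95% from the fit. Normalized CPM used TMM over all 12 libraries, and CPM per kb divided them by the deposited length. The fit was tested on simulated data.

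The 10 genes and all lists were chosen with earlier results of these data known. All 10 genes were named in every comparison. From each of the 8 pathway lists at most 4 genes per comparison were named (adjusted p below 0.05, at least 1 CPM on average in one of the groups, no overlap, by size of change), and 3 nearest genes per member among genes with a mean of at least 1 CPM, on log2 CPM with a prior count of 2. The lists of cell markers covered stellate cells, portal fibroblasts and mesothelium, endothelial cells, Kupffer cells, monocyte-derived macrophages, platelets, T and NK cells, B cells, neutrophils, cholangiocytes, hepatocytes and erythroid cells. Alternatives changed the tool (DESeq2 1.42.0), the scaling (its size factors, or totals only), the filter (none, or a minimum of 10 counts throughout), the threshold (unadjusted p, or adjusted p below 0.1) and the design (replicate block, 1 fit to all 12 libraries, each library left out). Over time 28 genes in wild-type and 32 in PPARγ-KO met this rule, and the text gives examples chosen with their values known. Not every gene that met it is reported here. Counts of the pathway and marker lists without wild-type replicate 1 were added after the data were seen, and these lists were not refitted without any other library. Pairing by replicate number was examined over 5000 genes of highest abundance. Deviations from group means of same-numbered libraries correlated at 0.218, 0.323 and 0.140 between genotypes at 2 months, and at -0.081, -0.059 and -0.172 at 5 months. Libraries of different number reached 0.113 between genotypes at 2 months, and same-numbered wild-type libraries of different times reached 0.239. Deviations sum to 0 within a group, so these correlations are not independent and do not establish a pairing. The main tests used none, and the block was an alternative only. Within genotypes over time at least 1 of 3 was below 0.1.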

Additional observations from a re-analysis of the deposited data

Results flagged for a closer look

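None of the 10 ligand and receptor genes had a genotype difference that changed between 2 and 5 months by the test of all 12 libraries in edgeR. Of the 151 pathway genes tested, 3 did, a share of 1.99% beside 1.57% of all genes tested, so the count is no result about the pathways. Dusp1, a MAP kinase phosphatase, had a difference that was higher at 5 months by 1.28 on the log2 scale (SE 0.233, adjusted p = 0.0256), and Junb one that was higher by 0.82 (SE 0.167, adjusted p = 0.0221). For Nrp1, a coreceptor of the PDGF and TGF-β systems, the change was -0.63 (SE 0.126, adjusted p = 0.0190). All 3 rest on libraries of both times, where age and any batch cannot be told apart from time on diet within a genotype.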

How the results depend on the processing

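The number of the 10 genes called between genotypes at 2 months was 2 as reported, 4 by DESeq2 (Tgfb1 and Pdgfrb in addition, adjusted p = 0.0342 and 0.0446), 4 with no filter, 5 at an unadjusted p under 0.05, 4 at an adjusted p under 0.1, 3 with the replicate block, and 0 to 3 with 1 library left out. At 5 months it was 3 as reported, 6 at an unadjusted p under 0.05, 2 with the replicate block and 1 to 6 with 1 library left out. It was 2 to 3 over time in wild-type and 1 to 3 in PPARγ-KO with 1 library left out, against 3 as reported. For the change between times it was 0 as reported, 3 at an unadjusted p under 0.05, and 0 to 1 with 1 library left out. Over all genes the calls at 2 months went from 259 higher and 260 lower to 793 and 784 without wild-type replicate 1. Changes of direction were found for differences near 0. With library size alone, Pdgfc between genotypes at 5 months was -0.0253 and, over time in wild-type, Tgfb1 was -0.08 and Pdgfra -0.0554. Tgfb1 over time in wild-type was -0.0171 with at least 10 counts in every library, and Pdgfra -0.0034 with the replicate block. With 1 library left out, Pdgfc between genotypes at 5 months ran from -0.0081 to 0.1391. Over time in wild-type Tgfb1 ran from -0.1381 to 0.1272, Tgfb2 from -0.0998 to 0.3218 and Pdgfra from -0.0951 to 0.2226, and in PPARγ-KO Tgfbr1 from -0.1057 to 0.0306, Pdgfa from -0.0905 to 0.002 and Pdgfrb from -0.1482 to 0.0012. The change between times ran from -0.2871 to 3e-04 for Tgfb1, -0.1147 to 0.3168 for Tgfb2 and -0.1742 to 0.0124 for Pdgfc. The cause was not tested. Library size alone moved the median of all genes by at most 0.09. No gene called as reported changed direction in any alternative. The block changed the calls of Pdgfrb at 2 months and of Tgfbr1 at 5 months (adjusted p = 0.0542). Its pairing was not established at 2 months and not borne out at 5 months. With 24 to 65 counts per library, Tgfb2 and Tgfb3 have intervals that do not exclude changes of the size called in other genes.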

Other observations

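Markers of the remaining cell types give a wider frame for the values above. B cell markers gave 0 calls of 6 at 2 months and 2 lower of 3 at 5 months, Ms4a1 and Cd79b among them, chosen here after their values were seen. Neutrophil markers gave 0 of 2 and 2 lower of 3, and T and NK cell markers 0 of 2 and 0 of 8, with a median of -0.83 at 5 months. Platelet and megakaryocyte markers, from cells that store PDGF and TGF-β1, gave 0 of 2 and 0 of 3, summed to 3.82 to 9.30 CPM, and Gp1bb had no count in any library. Portal fibroblast and mesothelial markers gave 0 of 6 and 0 of 7. Cholangiocyte markers gave 0 of 7 and 1 higher of 6, erythroid markers 1 higher of 5 at both times, and hepatocyte markers 1 and 3 higher of 10. With wild-type replicate 1 of each time left out, hepatocyte markers had 5 and 6 higher of 10, B cell markers 0 of 6 and 3 lower of 4, and neutrophil markers 0 of 3 and 3 lower of 3. In the same fits portal fibroblast and mesothelial markers had 1 lower of 6 and 1 lower of 7, cholangiocyte markers 1 lower of 7 and then 1 in each direction of 7, and platelet and T and NK cell markers 0 at 2 months and 1 lower each, of 4 and of 8, at 5 months. All these calls are by edgeR, for PPARγ-KO against wild-type, and the shares of all genes called are those given above with the stellate cell markers. For Kupffer cell markers the change of the genotype difference between 2 and 5 months passed the test for 8 of 11. All 8 went toward a lower value at 5 months, and the list median was -1.10. Of all genes tested, 1.57% passed that test in either direction. T and NK cell and B cell markers gave 0 calls of 8 and of 6, all below 0, with medians of -1.14 and -1.02. Endothelial markers gave 1 higher and 2 lower of 12, and hepatocyte markers 1 lower of 10.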
